A study of Mus musculus with 10 samples.

Results

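Bhlhe23 and 8 related neural genes of the basic helix-loop-helix (bHLH) family were described across control and Onecut-deficient cells: Bhlhe23, Bhlhe22, Neurog1, Neurog2, Neurog3, Neurod1, Neurod4, Atoh1 and Ptf1a. These 9 genes, of 48972 genes with counts, were listed by name after the fall of Bhlhe23 in the mutant cells was known. The group was thus selected on the values of Bhlhe23 in this contrast, which are given as a description, without a test. The question was whether its relatives fell with it. Of the 9, 7 passed the filter on low counts, and Atoh1 and Ptf1a did not.

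The data are RNA-sequencing counts on exon bins from 10 samples of spinal cord cells taken from mouse embryos at e10.5 (embryonic day) and sorted by fluorescence for the reporter YFP. The titles of all 10 samples give this age, whereas their descriptions give an age that differs from sample to sample, and the titles were followed. The 5 control samples carried Olig2-Cre+/-, Rosa26R-YFP+/- and 1 floxed allele of each Onecut gene studied (Oc1 +/Flox, Oc2 +/Flox), so that Cre was active in the controls too. The 5 conditional double knockout (cdKO) samples carried Olig2-Cre+/- and Rosa26R-YFP+/- with Oc1 -/Flox and Oc2 -/Flox. Oc1 and Oc2 are Onecut1 and Onecut2, homeodomain transcription factors of developing motor neurons. Olig2-Cre drives recombination in the motor neuron progenitor domain and its progeny, and YFP also marks part of the neighbouring ventral interneurons, so the sorted cells are a mixture. The labels do not say whether the samples of a group came from separate embryos, and the p-values therefore measure only the spread between these samples, which may be technical.

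As background, proneural bHLH proteins are transcription factors that bind short DNA motifs called E-boxes, mostly as dimers with the broadly expressed E proteins, and push progenitors to leave the cycle and become neurons. Id proteins bind the E proteins without binding DNA, and Hes and Hey proteins repress proneural genes downstream of Notch. In the ventral spinal cord Neurog2 acts with Olig2 in motor neuron progenitors, Neurod1 and Neurod4 follow the neurogenins in differentiating cells, and Bhlhe22 and Bhlhe23 are Olig-related factors that mostly act as repressors in postmitotic neurons.

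The windows of 250 bases upstream of the RefSeq start (GRCm38.p6) of Bhlhe23 and of Neurog2 are shown because these are the member with the fall and an abundant relative for which no fall was detected. Each is written 5′ to 3′ on the strand of the gene, the minus strand at chr2:180776901-180777150 for Bhlhe23 and the plus strand at chr3:127632886-127633135 for Neurog2, and capitals mark the CCAAT box, read as CCAAT or ATTGG.
Bhlhe23: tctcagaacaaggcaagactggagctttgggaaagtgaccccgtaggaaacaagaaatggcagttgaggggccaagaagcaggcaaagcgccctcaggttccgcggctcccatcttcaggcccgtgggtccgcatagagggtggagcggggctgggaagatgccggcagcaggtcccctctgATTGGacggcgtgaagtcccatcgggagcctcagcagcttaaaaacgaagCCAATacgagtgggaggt
Neurog2: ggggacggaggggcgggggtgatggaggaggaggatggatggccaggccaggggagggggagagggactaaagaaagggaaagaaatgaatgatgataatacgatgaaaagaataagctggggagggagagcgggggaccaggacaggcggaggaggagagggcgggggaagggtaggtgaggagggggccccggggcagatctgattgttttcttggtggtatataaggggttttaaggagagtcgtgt
The Bhlhe23 window held 2 such matches, which start 68 and 18 bases before the gene's start, and the Neurog2 window held none. CCAAT was searched after the windows had been seen. It lay in the windows of 5 of the 8 members with an entry (Bhlhe23, Neurog1, Neurog3, Atoh1 and Ptf1a) and in 33.8% of all 32851 windows. The Onecut core letters ATCGAT, in 0.728% of all windows, and ATTGAT, in 6.72%, were in no member's window on either strand. Of the E-box letters, CAGATG (14.4% of all windows) was in none, CATATG (3.46%) was in that of Neurod1 and CAGCTG (13.0%) in that of Neurog3. TATAAA (12.4%) was in none. These are matches of letters, not binding sites, and no match says only that the letters are not in these windows.

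The depth was similar between groups, with 63932395 to 107709534 counts on exon bins in the control samples and 72315782 to 84249157 in the cdKO samples. Levels are given as CPM, counts normalized to library size, with library sizes scaled by edgeR's trimmed mean of M-values (TMM), where 3 counts correspond to 0.0288 to 0.0591 CPM depending on the sample. The sample cdKO 5 stood apart from the other 9, with counts on 198569 exon bins against 243970 to 271591 and a scaling factor of 0.717. Several results that move with it are therefore also given without it. Among the controls, control 5 had the lowest or the highest sum of most lists of cell markers given below. Of the targeted genes, Onecut1 ranged from 2.25 to 9.93 CPM in controls and from 1.03 to 4.29 CPM in cdKO samples. Its log2 fold change of cdKO over control was -1.11 (SE 0.46, edgeR quasi-likelihood adjusted p = 0.938). It was -2.29 on bins that no other gene covers and -0.74 on its bin with the most counts alone. Onecut2, whose remaining exons can still be transcribed in mutant tissue, overlapped between groups, at 0.987 to 9.39 CPM in controls and 1.35 to 19.2 CPM in cdKO samples. Onecut3 was not itself targeted, and the authors report that its expression is lost when Oc1 and Oc2 are deleted. Onecut3 ranged from 0.330 to 0.682 CPM in controls and from 0 to 0.0381 CPM in cdKO samples, at least 11.9-fold lower against a floor of 3 counts per library.

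Bhlhe23 was lower in all 5 cdKO samples than in any control sample. Its level was 3.74, 4.69, 2.58, 3.09 and 2.57 CPM in control replicates 1 to 5, from 174 to 489 counts per sample. It was 0.787, 0.951, 0.590, 0.822 and 0.295 CPM in cdKO replicates 1 to 5, from 15 to 80 counts per sample. The groups did not overlap, and the gap between the lowest control and the highest cdKO sample was wider than the SD of either group. The means were 3.33 CPM ± 0.896 and 0.689 CPM ± 0.255 (SD, n = 5 each), a log2 fold change of -2.27 with a 95% interval from -3.13 to -1.41. Bhlhe23 was selected on this fall, so the gap and the interval only describe it and are not a test. Without cdKO 5, its lowest sample, the log2 fold change was -2.08. Of the 17835 genes tested, 0.224% were lower in cdKO samples without overlap, and Bhlhe23 is among them by selection. In sorted bulk samples, fewer cells that express a gene and less RNA per cell cannot be told apart.

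Bhlhe23 (ENSMUSG00000045493) lies on the minus strand of chromosome 2 at chr2:180774381-180776900 (GRCm38), and its exon was counted in 3 bins. The 5′ bin of 1497 bases, which holds the whole coding sequence, took 59.2% of its counts and fell to 21.0% of the control mean. The middle bin of 144 bases, which the annotated transcript Gm14343 also covers on the same strand, stood at 20.9% of the control mean. The 3′ bin of 879 bases stood at 19.5%. The coding sequence spans chr2:180776075-180776743, so the 5′ bin also holds untranslated sequence, and the bins do not separate coding from untranslated sequence. The fall was of like size on the bin with the coding sequence and on the bins downstream of it. The groups did not overlap on any of the 3 bins, and bins free of other genes gave the same log2 fold change of -2.27. The bins are parts of the counts on which Bhlhe23 was selected, so their separation is a description.

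**Figure D1:**
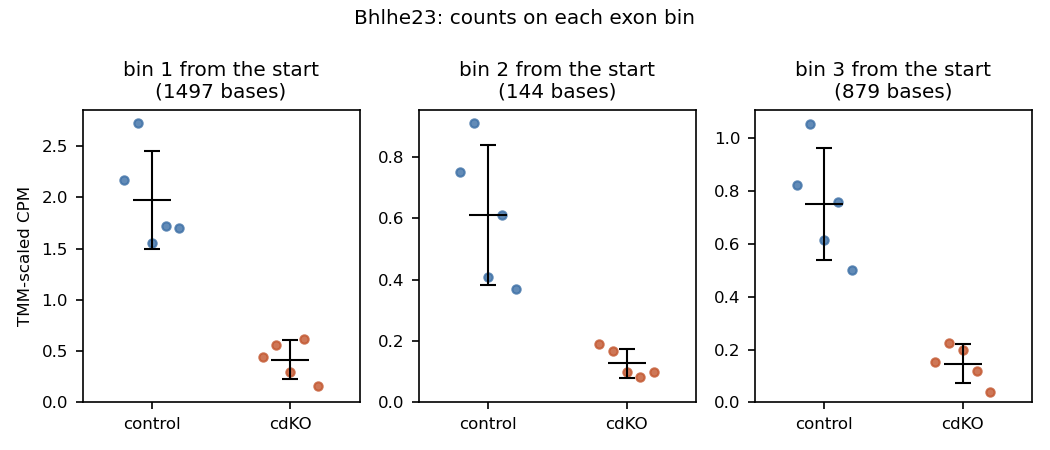
TMM-scaled CPM on each of the 3 exon bins of Bhlhe23, numbered from the 5′ end, in 5 control and 5 cdKO samples (points), with the mean and SD as black bars. On every bin all cdKO samples lie below all control samples, with cdKO means at 21.0%, 20.9% and 19.5% of the control means. The bins are parts of the counts on which Bhlhe23 was selected.

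None of the 6 relatives tested passed the test. At an adjusted p under 0.05, edgeR's quasi-likelihood test called 0 of the 6 relatives tested and 0 of all 17835 genes (0.0%), while the DESeq2 Wald test called 19 genes and limma-voom 3 genes, none of them a relative. At an unadjusted p under 0.05, 743 genes (4.17%) were higher and 145 (0.813%) lower in cdKO samples, and of the 6 relatives tested 1 was higher, Bhlhe22, and none was lower. Groups of samples overlapped for all 6, whereas 32 of the genes tested (0.179%) were higher in cdKO samples without overlap. The 95% intervals of 5 of the 6 relatives included 0. Their lowest bounds were -1.07 for Neurod4 and -0.97 for Neurog2, so the intervals still held falls of up to that size. The median log2 fold change was 0.20 over the 6 relatives tested, without Bhlhe23, and -0.02 over all genes tested, and both are descriptions.

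**Figure D2:**
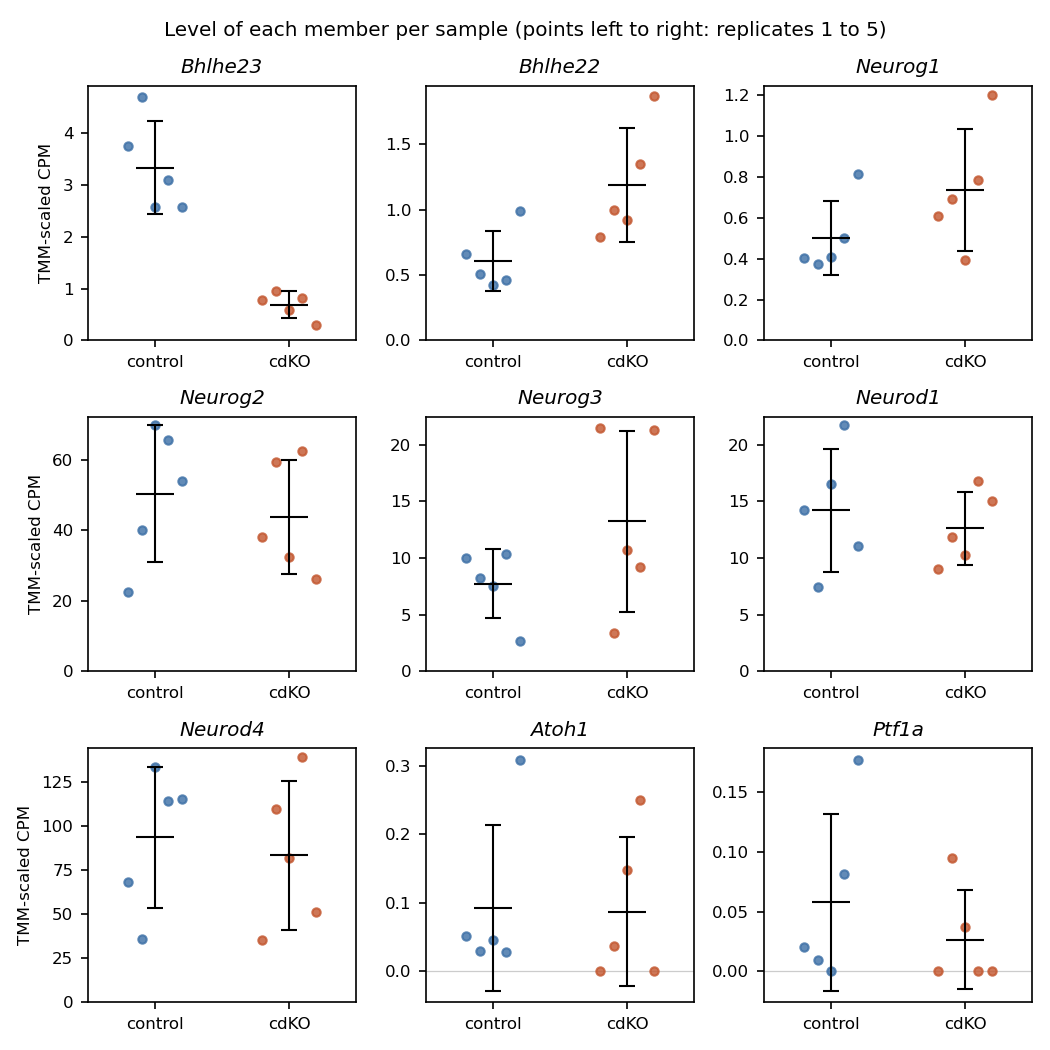
TMM-scaled CPM of the 9 genes in each control and cdKO sample (points, replicates 1 to 5 from left to right), with the group mean and SD as black bars; each panel has its own linear axis. Control and cdKO samples separate for Bhlhe23, at 2.57 to 4.69 against 0.295 to 0.951 CPM, and overlap for the other 8.

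Bhlhe22, the closest relative of Bhlhe23 in the list and a repressor of spinal interneuron and dorsal horn lineages, had the opposite sign. Its level was 0.662, 0.508, 0.420, 0.461 and 0.989 CPM in control replicates 1 to 5. It was 0.787, 0.999, 0.921, 1.35 and 1.87 CPM in cdKO replicates 1 to 5. The groups overlapped through control 5 alone, which exceeded cdKO 1 and cdKO 3, while the other 4 controls were below every cdKO sample. The log2 fold change was 0.96 (SE 0.43, 95% interval 0.05 to 1.87), with an unadjusted p of 0.0409 and an edgeR adjusted p of 0.938. Without cdKO 5, which was highest for Bhlhe22, it was 0.75 with an unadjusted edgeR p of 0.0580. The unadjusted edgeR p was also over 0.05 without control 1, 2, 3 or 4 or without cdKO 4 (0.0601 to 0.0963). It stayed under 0.05 without control 5, cdKO 1, cdKO 2 or cdKO 3. In cdKO 5 erythroid markers summed to 66.8 CPM, the highest of all samples, while sensory neuron and neural crest markers summed to 112 CPM, within the range of the other samples, and their part in the Bhlhe22 value was not tested. Bhlhe22 (chr3:18054174-18057517, plus strand) was counted on 1 bin, covered by no other gene.

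The ratio of Bhlhe23 to Bhlhe22 within a sample does not depend on the scaling between samples. In CPM it was 5.65, 9.23, 6.14, 6.71 and 2.60 in control replicates 1 to 5. In cdKO replicates 1 to 5 it was 1.0, 0.952, 0.640, 0.611 and 0.158. Bhlhe23 therefore had more counts than Bhlhe22 in every control sample, and no more than Bhlhe22 in any cdKO sample. The separation includes the fall of Bhlhe23 that selected the genes and is not a test.

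Among the neurogenins, which start neuronal differentiation, Neurog2 (chr3:127633135-127635631, plus strand) was the most abundant. Its level was 22.5, 40.2, 69.8, 65.6 and 54.0 CPM in control replicates 1 to 5 and 38.2, 59.4, 32.6, 62.5 and 26.3 CPM in cdKO replicates 1 to 5. Both groups covered nearly the same range, with control 1 the lowest of all samples. The log2 fold change was -0.20 (SE 0.36, 95% interval -0.97 to 0.56, edgeR adjusted p = 0.997), which leaves room for a fall to 0.510 or a rise to 1.48 times the control level.

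Neurog3 (chr10:62133090-62134763, plus strand), known from endocrine pancreas and also expressed in the ventral-most spinal progenitors, varied widely between samples. It stood at 9.97, 8.24, 7.51, 10.3 and 2.69 CPM in control replicates 1 to 5 and at 21.5, 3.40, 10.7, 9.21 and 21.3 CPM in cdKO replicates 1 to 5. The samples cdKO 1 and cdKO 5 were above all others, and cdKO 2 was below 4 of the 5 controls. The log2 fold change was 0.77 (SE 0.49, 95% interval -0.28 to 1.82, edgeR adjusted p = 0.966) and ranged from 0.52 to 1.01 when each sample was left out. Of its counts 88.0% lay on the 3′ bin, where Fam241b runs on the other strand over 273 of the bases, and the 5′ bin alone gave 0.52.

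Neurog1 (chr13:56250478-56252163, minus strand), at 0.374 to 0.812 CPM in controls and 0.393 to 1.20 CPM in cdKO samples, was low in both groups. Its log2 fold change was 0.56 (SE 0.45, edgeR adjusted p = 0.997), and 0.33 without cdKO 5, where it was highest.

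Neurod4 and Neurod1, which follow the neurogenins in young neurons, did not pass either. Neurod4 (chr10:130268152-130280240, minus strand) stood at 68.6, 36.2, 134, 114 and 116 CPM in control replicates 1 to 5 and at 35.4, 110.0, 82.2, 139 and 51.3 CPM in cdKO replicates 1 to 5. The lowest and the highest samples of both groups were close to each other. Its log2 fold change was -0.16 (SE 0.42, 95% interval -1.07 to 0.74, edgeR adjusted p = 0.998). Neurod1 (chr2:79452521-79456751, minus strand) stood at 7.44 to 21.7 CPM in controls and 9.02 to 16.8 CPM in cdKO samples, with a log2 fold change of -0.17 (SE 0.33, 95% interval -0.88 to 0.54, edgeR adjusted p = 0.997). These Neurod1 counts come from its 3′ exon, which holds the coding sequence, because the bin of its 5′ exon is shared with the protein-coding gene Cerkl and was left out. The non-coding gene Gm26755 runs on the other strand over 154 bases of the counted bin, so Neurod1 has no value on bins free of other genes.

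Atoh1 and Ptf1a, which specify dorsal interneurons, were at or near the floor. Atoh1 (chr6:64729125-64731245, plus strand) had 2 to 21 counts in the control samples and 0 to 21 in the cdKO samples. Ptf1a (chr2:19445663-19447501, plus strand) had 0 to 12 counts in the control samples and 0 to 8 in the cdKO samples. No fold change is given for either gene. The dorsal genes Lbx1, Pax7, Barhl1, Barhl2 and Tlx3 likewise stayed below 1 CPM in every sample.

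Per kilobase of counted exon, the control levels of the members fell in steps. Neurod4 (28.0 CPM per kilobase ± 12.0) and Neurog2 (22.6 ± 8.71) led, and their difference was within the spread between samples (SD, n = 5). Neurod1 (5.62 ± 2.15) and Neurog3 (5.03 ± 1.99) followed and did not differ beyond their spread. Bhlhe23 came next at 1.32 ± 0.355, above Neurog1 (0.301 ± 0.109) and Bhlhe22 (0.182 ± 0.0694) in every control sample, and Atoh1 (0.0435 ± 0.0576) and Ptf1a (0.0382 ± 0.0491) came last. In the cdKO samples Bhlhe23 had a mean of 0.273 CPM per kilobase, below the means of Neurog1 (0.444) and Bhlhe22 (0.354). The other abundant genes had cdKO means from 4.99 (Neurod1) to 25.0 (Neurod4) CPM per kilobase. The order among the low genes is a description of these means.

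The partners, antagonists and targets of these factors were read from 6 lists, and in none did a gene reach an unadjusted p under 0.05 or separate the groups. Of all genes tested, 4.17% were higher and 0.813% lower in cdKO samples at that p. Without overlap, 0.179% were higher and 0.224% lower. At such shares short lists can hold no such gene, so the absence says little about these lists. All 3 E proteins tested, the dimer partners, had log2 fold changes below 0, with a median of -0.25 and a smallest unadjusted edgeR p of 0.212. Tcf3 was at -0.25 (SE 0.49), and at 0.04 without cdKO 5, where it stood at 37.7 CPM against 226 to 518 CPM elsewhere. Tcf12 was at -0.19 (SE 0.34). For the 4 Id proteins, the inhibitors of those partners, the median was 0.24. Id3 was at 0.30 (SE 0.29) and Id1 at 0.18 (SE 0.35), a sign that turned to -0.05 with total counts as the scale and to -0.22 without cdKO 5.

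Of 14 other neural bHLH activators 9 were tested, with a median of 0.17. Nhlh2, a factor of newly born neurons, was at -0.13 (SE 0.30). In the Olig family (3 tested, median -0.35), Olig2, which defines the motor neuron progenitor domain, was at -0.50 (SE 0.34) and Olig1 at -0.35 (SE 0.34). Of 10 Hes and Hey repressors 7 were tested, with a median of -0.23. Hes5, a Notch target, was at -0.17 (SE 0.34), and Hes6, which antagonises Hes1, was at 0.35 (SE 0.31). The 22 listed neurogenin targets had a median of -0.11 and ranged from -1.24 to 0.99, with Tubb3, a tubulin of differentiated neurons, at 0.41 (SE 0.49). Against the median of -0.02 over all genes tested, which moved to -0.15 with total counts as the scale, the list medians are descriptions.

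**Figure D3:**
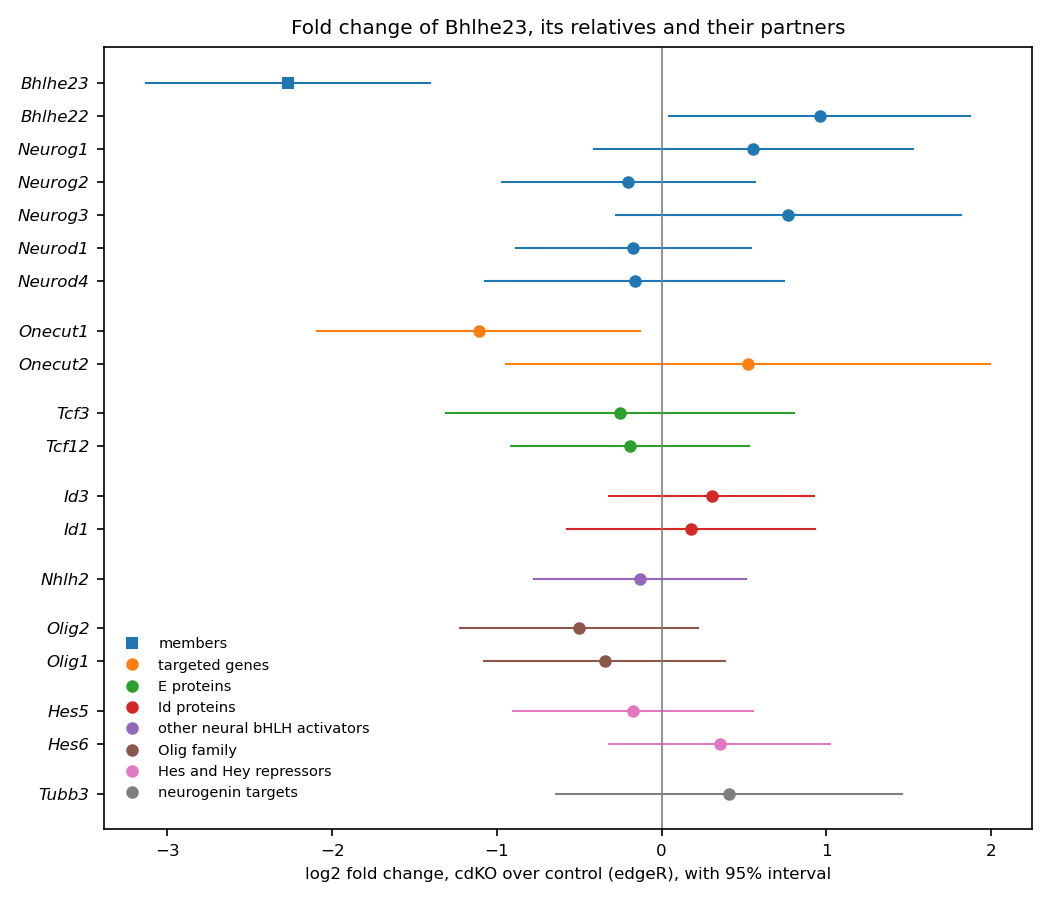
Log2 fold change of cdKO over control (symbols) with the 95% interval (lines) from edgeR for the 7 members tested, Onecut1, Onecut2 and genes named from the partner lists. Bhlhe23 (square), whose value selected the genes, lies at -2.27, and its interval is a description and not a test. The intervals of 5 of its 6 tested relatives include 0.

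Markers of the cells that the sort could hold were summed per sample. Motor neuron markers, such as Isl1 and Isl2, summed to 531 to 693 CPM in controls and 309 to 790 CPM in cdKO samples. The lowest sums were those of control 5 (531) and cdKO 5 (309), and the median log2 fold change of the list was 0.007. Of the motor neuron markers, 1 of 8, Isl1, had an unadjusted edgeR p under 0.05 and was lower in cdKO samples (adjusted p = 0.938). At that threshold 0.813% of all genes tested were lower. Progenitor markers, with Olig2 and Sox2, summed to 187 to 319 and 153 to 264 CPM. Markers of V3 interneurons and their progenitors, with Nkx2-9 and Nkx2-2, summed to 24.0 to 99.7 and 21.7 to 39.2 CPM, and those of V2 interneurons, with Lhx3 and Foxn4, to 56.2 to 149 and 59.1 to 217 CPM. Lhx3 is on the motor neuron list too, so the V2 sum is not a measure of V2 cells alone. The V0 and V1 list, with Dbx1 and Evx1, stayed at 0.384 to 1.77 and 1.25 to 1.93 CPM, and the dorsal list, with Msx1, at 4.24 to 11.4 and 5.01 to 8.78 CPM. Control 5 was the highest control for the progenitor (319), V3 (99.7) and dorsal (11.4) lists. It was the lowest for the V2 (56.2) and the V0 and V1 (0.384) lists. Of the cdKO samples, cdKO 5 was lowest for V2 (59.1) and highest for V0 and V1 (1.93) and dorsal (8.78). The cause was not tested.

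Other cell types were less even. Erythroid markers, with Hbb-y and Hbb-bh1, summed to 1.30 to 19.3 CPM in controls and 2.88 to 66.8 CPM in cdKO samples, where cdKO 3 and cdKO 5 were highest. All 7 erythroid genes tested had log2 fold changes above 0, with a median of 2.05, and 2 of them had an unadjusted edgeR p under 0.05, against 4.17% of all genes tested that were higher (adjusted p = 0.938 for both). Sensory neuron and neural crest markers, with Prph, summed to 46.9 to 118 CPM in controls and 51.3 to 186 CPM in cdKO samples, and Drgx, named because it was the only 1 of 6 tested with an unadjusted p under 0.05, was higher in cdKO samples. Mesenchyme and endothelial markers, with Meox1 and Col3a1, summed to 7.56 to 16.8 and 9.87 to 18.9 CPM. Here 1 of 8 tested, Twist1, had an unadjusted edgeR p under 0.05 (0.0123, log2 fold change 2.55, adjusted p = 0.938), against 4.17% of all genes tested that were higher. Macrophage markers, with Csf1r and Aif1, summed to 3.14 to 5.18 and 3.18 to 6.93 CPM. Control 5 had the lowest control sums of the erythroid (1.30), sensory and neural crest (46.9) and mesenchyme and endothelial (7.56) lists. None of these lists separated the groups the way Bhlhe23 did, and their part in its fall was not tested.

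Within the groups, 2 of 14 relations of the 7 members with Olig2 and Tubb3 passed after adjustment by Pearson's r and 1 passed by rank. On log2(CPM + 0.5), after subtracting each group's mean, Neurog2 and Olig2 had a Pearson r of 0.92 over 10 samples (exact permutation within groups, two-sided, p = 0.00146, adjusted p = 0.0204 over the 14 relations). Spearman's rho was 0.92 (exact permutation p = 0.00236, adjusted p = 0.0331), and r was 0.84 without control 1 and cdKO 5, the samples farthest from the median of Olig2. Samples high in Olig2 were thus high in Neurog2 in both groups.

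Neurod4 had an r of 0.72 with Olig2 and -0.73 with Tubb3, and neither passed after adjustment (exact permutation, adjusted p = 0.111 and 0.0875). Neurog3 ran the other way. Its r was 0.79 with Tubb3 (exact permutation adjusted p = 0.0399) and -0.75 with Olig2 (exact permutation adjusted p = 0.0875). The relation with Tubb3 was weaker by rank, with a rho of 0.75 (exact permutation adjusted p = 0.0877), and r was 0.50 without control 5 and cdKO 2. For Bhlhe23 the r was 0.20 with Olig2 and 0.37 with Tubb3 (exact permutation adjusted p = 0.707 and 0.508). Olig2 and Tubb3 were chosen as markers with earlier results known, and all levels of a sample share its library and scaling.

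**Figure D4:**
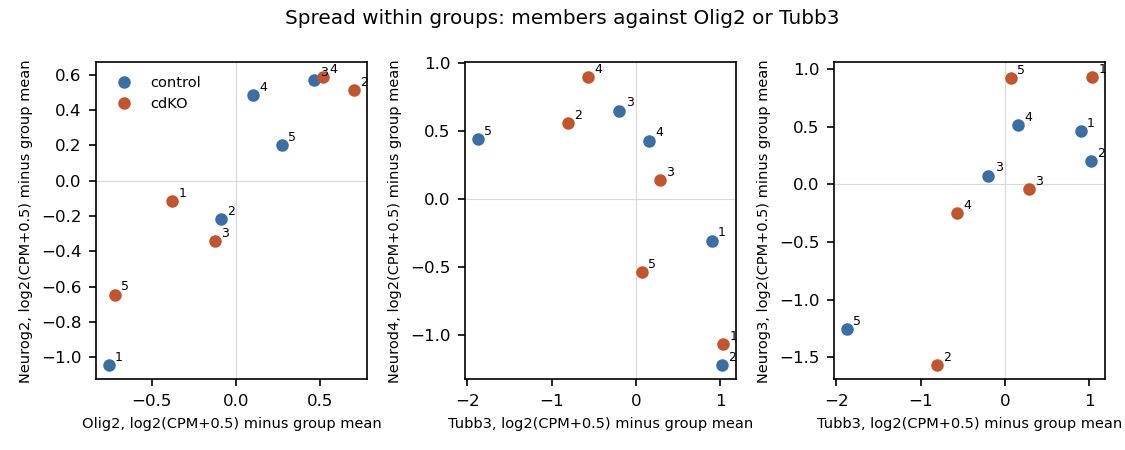
Levels of Neurog2 against Olig2, and of Neurod4 and Neurog3 against Tubb3, each as log2(CPM + 0.5) minus the mean of its group, in 5 control and 5 cdKO samples numbered by replicate. Pearson's r over the 10 samples is 0.92, -0.73 and 0.79.

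The genes whose profile within the groups was most like that of Bhlhe23, by Pearson's r over the 10 samples, were Ttc21a (0.948), Gm28033 (0.942), Gm22877 (0.931), Fam163a (0.928) and Rpl7l1 (0.920). No member of the list was among them, and the log2 fold changes of these 5 genes lay between -0.58 and 0.25.

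The place of the reads along the members differed in cdKO 5. The 5′ bin of Neurog2 took 10.1% to 13.1% of its counts in the other 9 samples and 2.24% in cdKO 5. For Neurog3 the shares were 11.0% to 17.0% and 4.62%. For Neurod4, whose 5′ bin has 84 bases, the share was instead higher in cdKO 5, at 10.2% against 3.05% to 4.37%. For Bhlhe23 the share was 53.3% in cdKO 5, from 8 of 15 counts, and 50.0% to 75.4% in the others. Its 5′ bin has 1497 bases, against 323 for Neurog2 and 238 for Neurog3. With so few counts on so long a bin, a shift like theirs could not be seen.

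Between the groups, no difference in the share on the 5′ bin passed a test. Exact two-sided permutation tests gave p = 0.873 for Bhlhe23, 0.683 for Neurog2, 0.619 for Neurog3 and 0.873 for Neurod4 (adjusted p = 0.873 for each). Without cdKO 5, a comparison added after the values were seen, the exact permutation p-values were 0.921 for Bhlhe23, 0.651 for Neurog2, 0.778 for Neurog3 and 0.270 for Neurod4.

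**Figure D5:**
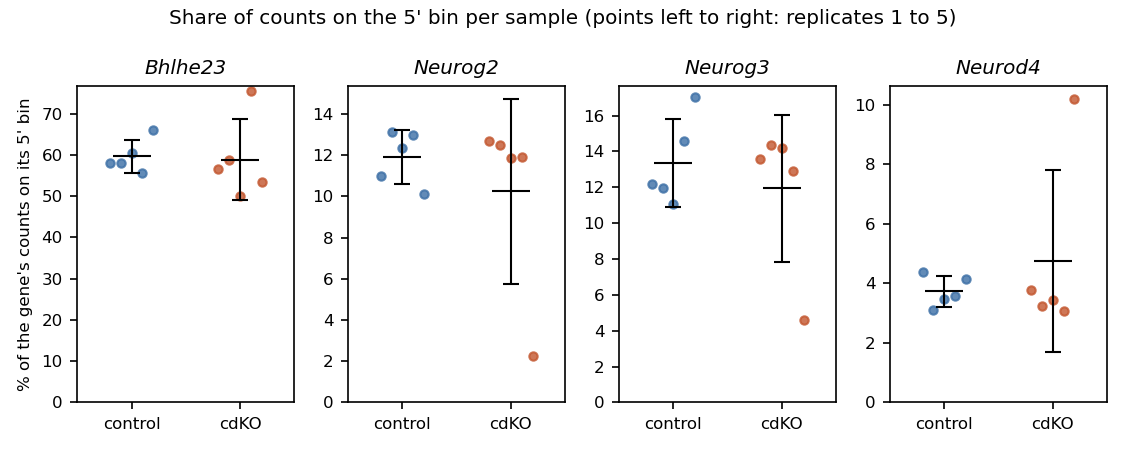
Percent of each gene's counts that lie on its 5′ bin, in 5 control and 5 cdKO samples (points, replicates 1 to 5 from left to right), with the mean and SD as black bars. The sample cdKO 5 is low for Neurog2 (2.24%) and Neurog3 (4.62%), high for Neurod4 (10.2%) and within the range of the others for Bhlhe23, where it rests on 15 counts.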

How the data were processed

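The authors sorted YFP-positive cells, sequenced their RNA and deposited 1 table of read counts per sample on non-overlapping exon bins, each named by 1 or more Ensembl genes. Per the labels, the processing tools were bcl2fastq 2.17, Trimmomatic 0.36, STAR 2.5.2b, Subread 1.5.2 and DESeq2, with the build GRCm38. Whether counting used the strand is not given in the sources used here. The values used are these deposited counts, without normalization.

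Bins that the tables name for 1 gene were given to that gene, also where another gene overlaps part of the bin. Bins named for several genes were given to the gene whose GENCODE M21 exons cover them, or to the protein-coding gene among several, and were summed. Of 425461 bins, 3988 for which this gave no gene or several, with 1.17% of counts, were left out. Samples were grouped by their labels, 5 control and 5 cdKO. The test was edgeR 4.0.16 (TMM, filterByExpr with a minimum count of 10, quasi-likelihood test in R 4.3.3, Benjamini-Hochberg over the 17835 genes tested). The common biological coefficient of variation was 0.540. Alternatives were DESeq2 1.42.0, limma 3.58.1 (voom), other scalings, filters and bin sets, a replicate block, and leaving out each sample in turn. The fits across genes were first tested on simulated counts. No pair of samples of a group agreed within sampling noise.

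The members and all gene lists were chosen with earlier results of these data known. Named genes were the members, the Onecut genes, the genes of each partner list that reached an unadjusted p under 0.05, separated the groups or were among the 2 most abundant per kilobase, the 2 most abundant of each marker list, and the 5 most like Bhlhe23. Genes outside this rule (Drgx, Twist1, Cerkl, Fam241b, Gm14343, Gm26755 and 5 dorsal genes) were named after their values were seen. Values of some genes that the rule names are not reported here. Protein sequences were not used here.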

Additional observations from a re-analysis of the deposited data

Results flagged for a closer look

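In 5 of 32 groups of 5 values examined, the highest or lowest sample lay apart from the other 4 by Dixon's criterion, which chance alone meets in about 1 of 20 groups. Of these 5, 4 were values of cdKO 5. Atoh1 was at 0.310 CPM in control 5 and at 0.0271 to 0.0502 CPM in the other 4 controls. Onecut2 was at 19.2 CPM in cdKO 5 and at 1.35 to 6.49 CPM in the other 4 cdKO samples. The share of counts on the 5′ bin in cdKO 5 was 2.24% for Neurog2 (11.9% to 12.7% in the other 4 cdKO samples), 4.62% for Neurog3 (12.9% to 14.3%) and 10.2% for Neurod4 (3.05% to 3.76%). The causes of these values were not tested.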

How the results depend on the processing

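No relative of Bhlhe23 had an adjusted p under 0.05 in any of the 19 alternatives, and Bhlhe23 kept its sign, from -2.41 to -2.08 (log2) when each sample was left out and from -2.35 to -2.26 otherwise. The number of genes past that threshold was 0 with edgeR, 1 with total counts as the scale, 1 without a filter, 19 with the DESeq2 Wald test, 3 with limma-voom and 0 to 4 when each sample was left out (4 without control 5, 1 without cdKO 5). The cause was not tested. Deviations of same-numbered samples had correlations of 0.09, -0.32, 0.17, 0.43 and 0.36, over 0.1 in 3 of 5 pairs, and 4 of 10 samples correlated best with their own number, so the numbers were not taken to pair the samples. With the replicate block 0 genes and 0 relatives passed, and Bhlhe23 was at -2.32. Of 358 alternative values for 19 other genes, 349 kept sign and side of the threshold, and 2 (Onecut3, with DESeq2 and voom) passed it. The 7 that turned sign were Id1 at -0.052 with total counts as the scale, and, leaving out 1 sample, values within ranges of -0.34 to 0.015 for Neurod1, -0.43 to 0.031 for Neurod4, -0.31 to 0.91 for Onecut2, -0.42 to 0.036 for Tcf3, -0.22 to 0.28 for Id1 and -0.35 to 0.095 for Hes5. Depth limits Atoh1 and Ptf1a, and cdKO samples with few Bhlhe23 counts.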
